A study of Mus musculus with 21 samples.

Results

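The genes described here are 10 of the oxidant defence of mouse brain: the superoxide dismutases Sod1, Sod2 and Sod3, the catalase gene Cat, and 6 targets of the transcription factor NRF2, namely Gclc, Gclm, Nqo1, Hmox1, Srxn1 and Slc7a11. They were taken by symbol from the count tables, and 10 of 10 were found in both tables among 21872 symbols. RNA of mouse brain was sequenced after water (control) or after the copper chelator trientine (TETA) in a study of copper in brain development and autism spectrum disorder. The 4 groups were control and TETA at embryonic day 18.5 (E18.5), with 6 and 6 libraries, and control and TETA at 7 weeks of age, with 5 and 4. The E18.5 libraries carry 2-part numbers (1-1 to 3-2), so each group may be nested in 3 sets, and the labels do not say what the first part means. The labels name water for the controls and TETA for the treated libraries, and give no mouse strain, genotype, TETA dose or length of exposure. Prefrontal cortex of male mice is stated only for 7 weeks, and the tissue label of every library is brain, so region and sex at E18.5 are not known. Nothing in the labels says that libraries of a group came from separate animals, so the p-values measure the spread between these libraries, which may in part be technical.

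Superoxide dismutases turn superoxide into hydrogen peroxide. SOD1, in the cytosol, and SOD3, secreted into the extracellular space, carry copper and zinc at their active site, while SOD2, in mitochondria, uses manganese. NRF2, encoded by Nfe2l2, is bound by KEAP1 and degraded in resting cells. When oxidants or electrophiles modify KEAP1, NRF2 accumulates and binds, with small MAF proteins, to antioxidant response elements near the genes of glutathione synthesis, quinone reduction, haem breakdown and cystine uptake. In brain this response is known to be stronger in astrocytes than in neurons.

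Libraries held 14678265 to 24308555 counts in the embryonic groups and 17838051 to 24035857 in the older ones. Levels below are CPM (counts relative to library size) after trimmed mean of M-values (TMM) scaling, given as mean ± SD over libraries. All 8 markers of cortical excitatory neurons were detected in each group. At 7 weeks the summed CPM of 12 striatal neuron markers was 1045 to 1287 in the control libraries and 476 to 607 in the TETA libraries, and all 12 were lower in TETA in edgeR's quasi-likelihood test. Of 6 inhibitory neuron markers 3 were lower (Gad2, Slc32a1 and Npy), with a summed level of 984 to 1022 CPM in control and 919 to 950.2 in TETA. Choroid plexus markers summed to 62.7 CPM in control replicate 4. They summed to 3.28 to 4.42 CPM in the other control libraries and 2.44 to 5.25 in TETA. Of 3 choroid plexus markers tested 1 was lower (Clic6). These libraries are labelled by treatment alone, so a difference in dissection and an effect of TETA cannot be told apart at 7 weeks. In bulk tissue, fewer cells of a type and less RNA per cell cannot be told apart.

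The promoters of 7 of the 10 genes (all but Sod3, Gclc and Hmox1) were in the RefSeq table, as windows from 250 bases before to 50 bases after the annotated start (GRCm38.p6). Each window was searched on both strands for 4 motifs: the core of the antioxidant response element (TGACNNNGC), an AP-1 site (TGANTCA, which can overlap the element), a cAMP response element (TGACGTCA) and a composite site of ATF4 and C/EBP factors (TGATGNAA). The 4 windows that held a match are shown, since they show where letters that NRF2 or ATF4 are known to bind stand within these windows. Matches are in capitals.
Srxn1 (chr2:152105274-152105573, plus strand): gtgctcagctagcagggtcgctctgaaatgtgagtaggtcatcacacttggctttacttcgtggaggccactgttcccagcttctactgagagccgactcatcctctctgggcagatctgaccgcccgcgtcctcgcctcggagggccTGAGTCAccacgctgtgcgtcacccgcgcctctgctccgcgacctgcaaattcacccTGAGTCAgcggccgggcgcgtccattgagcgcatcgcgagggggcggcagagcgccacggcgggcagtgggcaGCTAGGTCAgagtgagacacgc
Gclm (chr3:122245307-122245606, plus strand): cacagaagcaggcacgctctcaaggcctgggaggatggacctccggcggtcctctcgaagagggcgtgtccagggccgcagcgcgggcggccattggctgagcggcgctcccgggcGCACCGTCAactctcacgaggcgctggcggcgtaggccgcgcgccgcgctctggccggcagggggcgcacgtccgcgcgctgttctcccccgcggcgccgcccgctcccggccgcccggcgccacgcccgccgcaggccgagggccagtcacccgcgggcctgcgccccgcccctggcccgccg
Sod1 (chr16:90220512-90220811, plus strand): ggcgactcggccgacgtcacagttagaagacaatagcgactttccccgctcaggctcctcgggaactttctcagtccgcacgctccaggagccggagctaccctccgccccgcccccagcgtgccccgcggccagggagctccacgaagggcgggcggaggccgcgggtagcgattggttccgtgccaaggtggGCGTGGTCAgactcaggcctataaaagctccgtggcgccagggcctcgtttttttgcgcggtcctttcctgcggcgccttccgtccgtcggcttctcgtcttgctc
Slc7a11 (chr3:50443564-50443863, minus strand): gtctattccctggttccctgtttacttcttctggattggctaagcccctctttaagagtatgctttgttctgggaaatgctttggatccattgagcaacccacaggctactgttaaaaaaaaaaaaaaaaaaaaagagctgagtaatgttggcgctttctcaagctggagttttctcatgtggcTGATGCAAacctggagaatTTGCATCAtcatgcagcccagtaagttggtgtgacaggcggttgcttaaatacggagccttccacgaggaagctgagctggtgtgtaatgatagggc
The antioxidant response core was found in 3 of 7 windows (Srxn1 at bases 279 to 287, Gclm at bases 117 to 125 and Sod1 at bases 195 to 203, counted from 1 at the 5′ end of the window), each time on the opposite strand. It stood in 12.4% of all 32851 promoter windows. Srxn1 also held AP-1 matches at bases 149 to 155 and 206 to 212, a motif of 7.81% of all windows. Slc7a11 held the ATF4 composite at bases 185 to 192 and 204 to 211, a motif of 3.97% of all windows. The cAMP response element, found in 1.79% of all windows, was in 0 of 7. The windows of Sod2, Cat and Nqo1 held none of the 4. A match is a description of letters in the window and not a measured binding site. Bases outside the windows were not searched, so a gene without a match or without a window may still carry these motifs.

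The comparison of TETA with water at E18.5 asks whether the antioxidant genes of the embryonic brain differ after exposure to the chelator. With p-values adjusted over all genes, edgeR's quasi-likelihood test called none of the 10 genes at a threshold of 0.05, nor any other gene (0 of 13794, 0%). DESeq2 called 10 genes, none of them among the 10 described here. Sod3 had the highest fold of the 10, 1.39-fold of control, and Nqo1 the lowest, 0.676-fold. These were the 2 genes of the 10 with an unadjusted p under 0.05, which 660 of all genes (4.78%) reached. None of the 10 had TETA libraries wholly above or wholly below the control libraries, as 44 of all genes (0.319%) did. The median log2 fold change was -0.01 over the 10 genes and -0.0027 over all genes tested.

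**Figure D1:**
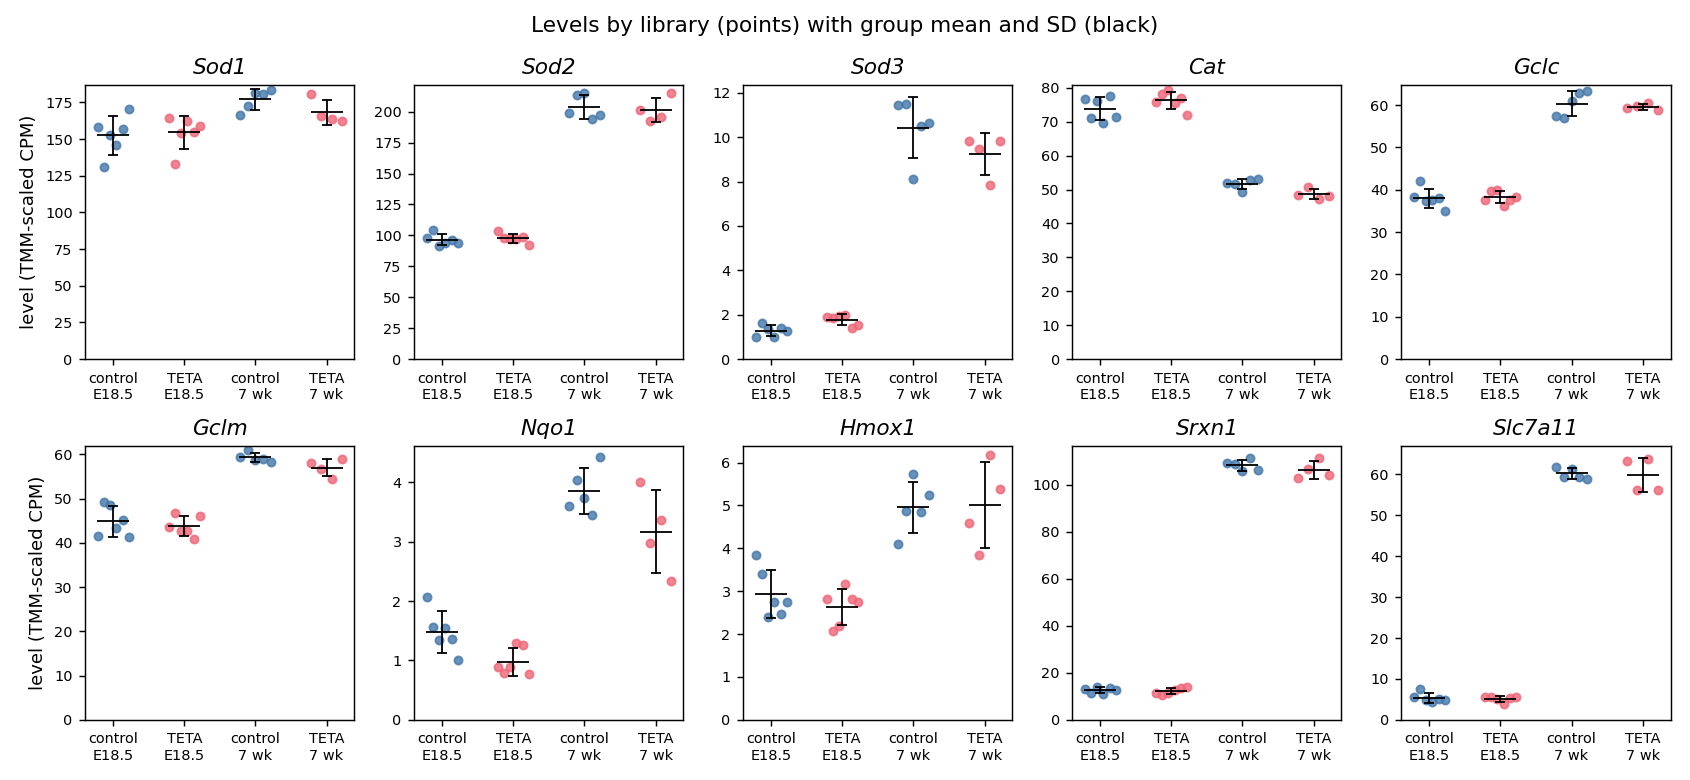
Levels of the 10 genes as TMM-scaled CPM (linear axes from 0, 1 panel a gene) in the control (blue) and TETA (red) libraries at each age; points are libraries and black bars the group mean and SD. Slc7a11, Srxn1 and Sod3 lie far higher at 7 weeks than at E18.5, Cat lies lower, and within each age the control and TETA points of all 10 genes overlap.

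Sod3 (extracellular superoxide dismutase; chr5:52363791-52371418, plus strand, GRCm38) was counted few times at E18.5, 16 to 33 counts in control and 23 to 51 in TETA. Its levels ran from 0.985 to 1.64 with a median of 1.32 CPM in control at E18.5 and from 1.38 to 1.99 with a median of 1.87 in TETA. The TETA libraries numbered 3-1 and 3-2, at 1.38 and 1.53 CPM, lay inside the control range and the other 4 above it, so the 2 lower ones share the first part of their number. The log2 fold change was 0.48 (SE 0.16, 95% interval 0.15 to 0.81, unadjusted p = 0.00662, adjusted p = 0.801, edgeR's quasi-likelihood test). Markers of endothelium and pericytes lay beside it: none of 8 tested passed, 4 had an unadjusted p under 0.05, and their summed level was 257 to 276 CPM in control and 267 to 287 in TETA. Their part in the Sod3 values was not tested.

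Nqo1, whose product reduces quinones to hydroquinones, lies at chr8:107388225-107403206, minus strand. At E18.5 it had 22 to 36 counts per control library and 15 to 33 per TETA library. Levels ran from 1.01 to 2.07 with a median of 1.45 CPM in control and from 0.764 to 1.29 with a median of 0.884 in TETA. The ranges overlapped, with 2 TETA libraries (1.29 and 1.26 CPM) above the lowest control library (1.01 CPM). The log2 fold change was -0.57 (SE 0.20, 95% interval -0.97 to -0.16, unadjusted p = 0.00866, adjusted p = 0.874, edgeR's quasi-likelihood test).

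The copper and zinc enzyme of the cytosol, Sod1 (chr16:90220754-90226329, plus strand), ran from 131 to 170.3 with a median of 155 CPM in embryonic control libraries and from 133 to 164 with a median of 157 in TETA libraries. In each group the library numbered 1-2 was the lowest. Its log2 fold change was 0.02, with a 95% interval of -0.10 to 0.13. Sod1 overlaps Scaf4 on the opposite strand, and Gclm and Slc7a11 overlap annotated non-coding genes and pseudogenes, while the strand setting used in counting is not given in the sources used here. Sod2, the mitochondrial manganese enzyme (chr17:13006846-13040063, plus strand), had an interval of -0.06 to 0.10 around 0.02. Cat, which breaks hydrogen peroxide into water and oxygen (chr2:103453849-103485160, minus strand), had one of -0.03 to 0.13 around 0.05. For these 3 well-counted genes the intervals were narrow, though the test does not show that the levels are equal. The fit took the libraries of a group as independent. If libraries that share the first part of their number are not, the intervals are too narrow.

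The subunits of glutamate-cysteine ligase, which makes the first step of glutathione synthesis, were near 0 on the log2 scale at E18.5. The catalytic subunit Gclc (chr9:77754535-77794485, plus strand) was at 0.01 (95% interval -0.09 to 0.11) and the modifier subunit Gclm (chr3:122245557-122270732, plus strand) at -0.04 (-0.14 to 0.07). Slc7a11, the cystine and glutamate exchanger that supplies cystine for glutathione (chr3:49892526-50443614, minus strand), was at -0.03 (-0.28 to 0.23). Srxn1, the sulfiredoxin that repairs over-oxidised peroxiredoxins (chr2:152105516-152111376, plus strand), was at -0.05 (-0.22 to 0.11). Hmox1, the inducible haem oxygenase (chr8:75093621-75100589, plus strand), was at -0.12 (-0.41 to 0.17). The intervals of Hmox1 and Slc7a11 were among the wider ones, and these genes were counted only 52 to 64 and 90 to 119 times per control library.

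At 7 weeks, too, none of the 10 genes passed the adjusted threshold for TETA against water, while 1418 of 14240 genes did (9.96%, with 5.67% higher and 4.28% lower, edgeR's quasi-likelihood test). An unadjusted p under 0.05, which 24.0% of all genes had, was found for none of the 10, and DESeq2 called none of them either. Groups that did not overlap, as in 11.2% of all genes, were also found for none. The log2 fold changes ran from -0.26 for Nqo1 to 0.04 for Hmox1, with a median of -0.03 over the 10 and 0.00019 over all genes. Of the 10 values, 2 were above 0.

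**Figure D2:**
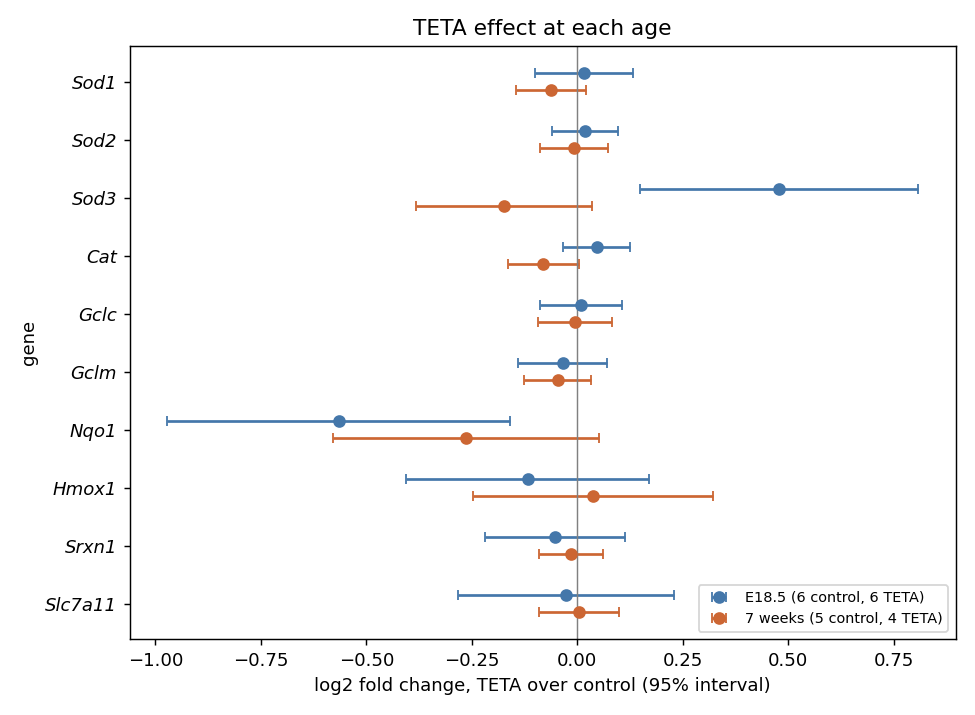
Log2 fold change of TETA against control for the 10 genes at E18.5 and at 7 weeks, with 95% intervals from edgeR. At E18.5 the intervals of Sod3 (0.15 to 0.81) and Nqo1 (-0.97 to -0.16) lie off 0, but neither passed after adjustment over all genes; at 7 weeks every interval reaches 0.

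The lowest unadjusted p-values of the 10 genes at 7 weeks belonged to Cat, Nqo1 and Sod3. Cat was 51.9, 51.5, 49.1, 52.8 and 53.0 CPM in the 5 control libraries and 48.4, 50.6, 47.2 and 48.1 in the 4 TETA libraries. The groups overlapped only through control replicate 3 and TETA replicate 2. The log2 fold change was -0.08 (SE 0.041, unadjusted p = 0.0625, adjusted p = 0.237, edgeR's quasi-likelihood test).

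Nqo1 stood at 3.59, 4.04, 3.74, 3.45 and 4.43 CPM in control and 4.01, 2.98, 3.36 and 2.33 in TETA. TETA replicate 1 lay among the controls and the other 3 below all of them. The log2 fold change was -0.26 (95% interval -0.58 to 0.05, adjusted p = 0.304, edgeR's quasi-likelihood test). With single libraries left out it ran from -0.40 (without TETA replicate 1) to -0.14 (without TETA replicate 4).

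For Sod3 the values at 7 weeks were 11.4, 11.5, 8.10, 10.5 and 10.6 CPM in control and 9.81, 9.46, 7.85 and 9.85 in TETA, with replicate 3 lowest in each group. The log2 fold change was -0.17 (95% interval -0.38 to 0.04, adjusted p = 0.309, edgeR's quasi-likelihood test). With single libraries left out it ran from -0.25 (without control replicate 3) to -0.10 (without TETA replicate 3). Markers of meningeal fibroblasts moved in the same comparison: 3 of 7 were lower in TETA, with a summed level of 56.2 to 66.6 CPM in control and 36.1 to 52.3 in TETA. Their part in the Sod3 values was not tested.

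None of the other 7 genes had an interval that lay off 0 at 7 weeks. Sod1 was 167, 173, 182, 181 and 183 CPM in control and 181, 166, 163 and 162 in TETA, a log2 fold change of -0.06 (95% interval -0.14 to 0.02). TETA replicate 1 stood among the higher controls and the other 3 below all controls. Srxn1 was 109, 109, 106, 111 and 106 CPM in control and 103, 107, 112 and 104 in TETA, with an interval of -0.09 to 0.06. The interval was -0.09 to 0.10 for Slc7a11, -0.09 to 0.07 for Sod2, -0.09 to 0.08 for Gclc and -0.13 to 0.03 for Gclm. The astrocyte markers, of which 3 of 8 were lower in TETA, summed to 5928 to 6824 CPM in control and 5386 to 5783 in TETA, and their part in these values was not tested. Hmox1 was 4.10, 4.88, 5.72, 4.86 and 5.25 CPM in control and 4.59, 3.85, 6.19 and 5.38 in TETA, groups that overlapped, with an interval of -0.25 to 0.32.

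Whether the TETA effect differed between the ages was tested as an interaction over all 21 libraries. Sod3 was the only one of the 10 genes to pass (1 of 10, lower at 7 weeks, against 209 of 14660 genes lower, 1.43%, and 245 higher, 1.67%). Its TETA effect was lower at 7 weeks than at E18.5 by a log2 difference of -0.66 (SE 0.19, 95% interval -1.05 to -0.28, adjusted p = 0.0487, edgeR's quasi-likelihood test). That value combines a positive estimate at E18.5 and a negative one at 7 weeks, neither of which passed alone. The adjusted p lay just under the threshold and ran from 0.0169 to 0.111 over 29 alternative fits, of which 21 lost the call; the log2 difference stayed between -0.74 and -0.59 in them. Summing the E18.5 libraries that share the first part of their number, which leaves 3 in each group, gave -0.66 and an adjusted p of 0.0855, edgeR. Cat had the next lowest unadjusted p (0.0195), with a log2 difference of -0.14 and an adjusted p of 0.201 in the same test. Cell type markers moved in the interaction as well, with 12 of 12 striatal neuron markers called lower. Of 7 meningeal fibroblast markers 0 were called and 0 lay above 0, with a median log2 difference of -0.63. Of 9 endothelial and pericyte markers 1 was called lower and 5 lay above 0. The part of these cell types in the Sod3 value was not tested.

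Of 90 further genes of the same pathways, in 7 lists, 83 could be tested at E18.5 and none passed for TETA in edgeR's quasi-likelihood test, while DESeq2 called Ddit4. Unadjusted p-values under 0.05 were found for 5 of the 83, where 4.78% of all genes had one, and none of the 83 had groups that did not overlap, where 0.319% of all genes did. Nfe2l2 itself was at a log2 fold change of 0.21 at E18.5 (adjusted p = 0.884, the same test), 5.60 ± 0.511 CPM in control against 6.46 ± 0.185 with TETA (SD, n = 6 and 6). It was named after its value was seen. At 7 weeks 88 were tested, and 1 rose and 3 fell with TETA, where 5.67% of all genes were called higher and 4.28% lower.

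The gene that rose at 7 weeks was Ddit4, a stress-induced inhibitor of mTORC1 and an ATF4 target, at 49.6 ± 3.27 CPM in control against 72.7 ± 12.6 with TETA (SD, n = 5 and 4; log2 fold change 0.56, SE 0.083, adjusted p = 0.000181, edgeR's quasi-likelihood test). Chac1, which degrades glutathione and is also induced by ATF4, fell from 10.5 ± 0.945 to 8.27 ± 0.626 CPM (adjusted p = 0.0164). Gpx1, the cytosolic glutathione peroxidase, fell from 69.8 ± 2.01 to 63.3 ± 2.60 CPM (adjusted p = 0.0425). Vldlr, a lipoprotein and reelin receptor, fell from 107 ± 3.64 to 97.1 ± 3.17 CPM (adjusted p = 0.036). Leaving out single libraries ended the call of Gpx1 in 7 of 9 fits, of Vldlr in 6, of Chac1 in 1 (without TETA replicate 3) and of Ddit4 in none. Over all 15 alternative fits the call was lost in 10 for Gpx1, 8 for Vldlr, 3 for Chac1 and 1 for Ddit4. A replicate block was among the fits that ended the calls of Gpx1 and Chac1. With the sum of log2(CPM + 1) over the 12 striatal markers as a covariate none of the 4 passed (adjusted p = 0.41 to 0.998, edgeR). The log2 values in that fit were 0.99 for Ddit4, -0.39 for Chac1, -0.34 for Gpx1 and -0.07 for Vldlr. That covariate does not overlap between the groups, so the fit has little to tell it from TETA by. In the interaction 1 of 89 list genes tested passed, where 1.43% of all genes were called lower and 1.67% higher: the TETA effect on Vldlr was lower at 7 weeks (log2 difference -0.20, adjusted p = 0.0293). DESeq2 called Vldlr and Ephx1, both lower.

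The comparison of ages in the control libraries asks how the level of each gene differs between the embryonic and the 7-week brain. All 10 genes differed, 9 higher and 1 lower at 7 weeks, where 44.0% of all 14375 genes tested were called higher and 45.5% lower (89.5% in all, edgeR's quasi-likelihood test). In 9 of the 10 the groups did not overlap, as in 80.2% of all genes, and Sod1 was the exception. The median log2 fold change was 0.94 over the 10 genes and -0.02 over all genes. Without TMM scaling the median of all genes was -0.17, so values within about that distance of 0 depend on the scaling. Age cannot be told apart from table, and region and sex at E18.5 are not known.

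Among the superoxide dismutases, Sod3 rose most with age, from 1.28 ± 0.249 to 10.4 ± 1.38 CPM (SD, n = 6 and 5), a fold of 8.24 (log2 3.04, SE 0.13, adjusted p = 1.04e-16, edgeR's quasi-likelihood test). Sod2 rose from 96.5 ± 4.51 to 204 ± 9.82 CPM, 2.12-fold (adjusted p = 7.64e-18). Its control libraries at 7 weeks lay at 199, 214, 215, 194 and 197 CPM, all above the embryonic 91.7 to 105. Sod1 rose least, from 153 ± 13.2 to 177 ± 7.21 CPM, 1.16-fold (log2 0.22, adjusted p = 0.000291), and its groups overlapped. Without TMM scaling the log2 value of Sod1 was 0.07 and its adjusted p 0.216. The log2 changes of the 3 dismutases with age thus ran from 0.22 to 3.04.

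The peroxide-handling genes moved in opposite directions. Cat fell from 73.8 ± 3.42 CPM at E18.5 to 51.7 ± 1.55 at 7 weeks, 0.703-fold (log2 -0.51, SE 0.042, adjusted p = 5.94e-11, edgeR's quasi-likelihood test). The embryonic control libraries ran from 69.7 to 77.7 with a median of 73.9 CPM, all above every library at 7 weeks. Srxn1 ran from 10.8 to 14.0 with a median of 12.9 CPM in the embryonic control libraries and rose to 109, 109, 106, 111 and 106 CPM in the 5 older ones. That is a fold of 8.60 (SE 0.055 and 95% interval 2.99 to 3.22 on the log2 scale, adjusted p = 3.46e-24). It stood 696th of 14375 genes by log2 fold change, counted from the highest, and its 3 promoter matches are in the sequence shown above.

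Of the glutathione genes, Slc7a11 had the highest fold of the 10. It ran from 4.33 to 7.46 with a median of 4.94 CPM in the embryonic control libraries and was 61.9, 59.5, 61.4, 59.4 and 59.0 CPM in the older ones. The fold was 11.6 (log2 3.53, SE 0.077, adjusted p = 2.19e-22, edgeR's quasi-likelihood test), 524th of all genes. The highest embryonic library, replicate 1-2 at 7.46 CPM, was still far below the lowest at 7 weeks. Gclc and Gclm rose less, 1.60-fold and 1.33-fold. Gclc went from 38.0 ± 2.26 to 60.3 ± 2.99 CPM and Gclm from 44.8 ± 3.44 to 59.3 ± 1.01 (adjusted p = 3.74e-12 and 2.82e-08).

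Nqo1 and Hmox1, both widely used as readouts of NRF2, rose from low levels. Nqo1 went from 1.48 ± 0.351 to 3.85 ± 0.391 CPM, 2.65-fold (log2 1.41, SE 0.15, adjusted p = 5.69e-09, edgeR's quasi-likelihood test). Hmox1 went from 2.93 ± 0.564 to 4.96 ± 0.595 CPM, 1.72-fold (log2 0.79, SE 0.13, adjusted p = 5.66e-06). The cell type markers moved with age as well: 8 of 8 astrocyte markers rose, with a summed level of 517 to 597 CPM at E18.5 and 5928 to 6824 at 7 weeks. All 8 microglial and all 8 oligodendrocyte markers also rose, and all 7 neural progenitor markers and all 5 red blood cell markers tested fell. Of the meningeal fibroblast markers 6 of 7 rose, with a summed level of 8.35 to 17.8 CPM at E18.5 and 56.2 to 66.6 at 7 weeks, in the comparison in which Sod3 rose 8.24-fold. All 6 inhibitory neuron markers rose as well, and of 12 striatal neuron markers 10 rose and 1 fell. Of 8 cortical excitatory neuron markers, in contrast, 1 rose and 6 fell. Of 9 endothelial and pericyte markers 4 rose and 3 fell. Among all genes tested, 44.0% were called higher and 45.5% lower. The part of these cell types in the changes of the 10 genes was not tested.

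Divided by exon length (CPM per kilobase of the union of exons), Sod1 was the most abundant of the 10 in every group, at 38.4 in embryonic and 44.6 in older control libraries. Below Sod1 the order at E18.5 was Cat (28.3), Gclc (10.1), Sod2 (9.64), Gclm (7.13), Srxn1 (4.46), Hmox1 (1.67), Nqo1 (0.956), Slc7a11 (0.384) and Sod3 (0.342). The libraries of Gclc and Sod2 overlapped, as did those of Slc7a11 and Sod3, so those neighbours were not separated. At 7 weeks Srxn1 stood second (38.4), followed by Sod2 (20.4), Cat (19.8), Gclc (16.0), Gclm (9.42), Slc7a11 (4.33), Hmox1 (2.83), Sod3 (2.79) and Nqo1 (2.48). There Sod2 overlapped with Cat, Hmox1 with Sod3, and Sod3 with Nqo1. A union of exons counts every annotated isoform, which lowers the value of genes with a long union, here Slc7a11 (13922 bases) and Sod2 (10008 bases). Sod2 had the highest CPM of the 10 in control at 7 weeks before division by length, so its place below Sod1 and Srxn1 and beside Cat rests on that length.

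**Figure D3:**
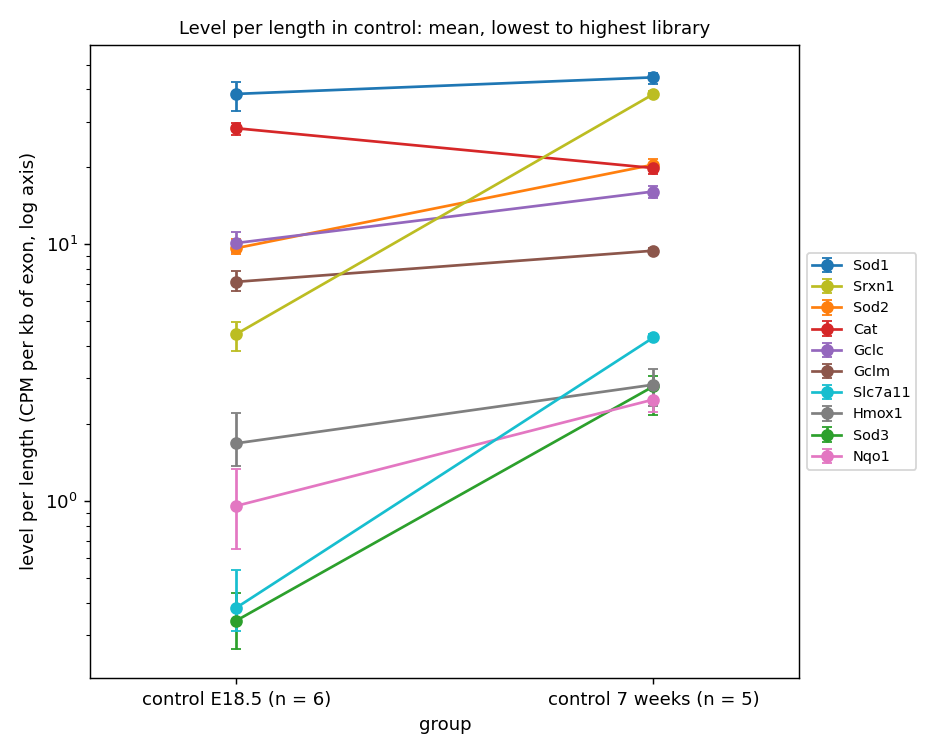
Level of each of the 10 genes per kilobase of exon (CPM per kilobase, log axis) in the control groups at E18.5 (n = 6) and 7 weeks (n = 5); points are means and bars run from the lowest to the highest library. Sod1 is highest at both ages, at 38.4 and 44.6, and Srxn1 goes from 4.46 to 38.4.

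Of the 90 pathway genes, 88 were tested between the ages, and 53 rose, 26 fell and 9 did not pass, with a median log2 fold change of 0.53. Of all genes tested, 44.0% were called higher and 45.5% lower (89.5% in all), against which the counts of each list are to be read. Among 13 regulators of NRF2, 6 rose and 7 fell. Nfe2l2 rose from 5.60 ± 0.511 to 16.1 ± 0.657 CPM (log2 1.54) and its relative Nfe2l1 rose by 1.68. Bach1, a repressor that occupies the same elements and holds Hmox1 low, fell from 95.6 ± 3.83 to 16.0 ± 1.15 CPM (log2 -2.57), and Maff, a small MAF protein, had a log2 change of -1.23.

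**Figure D4:**
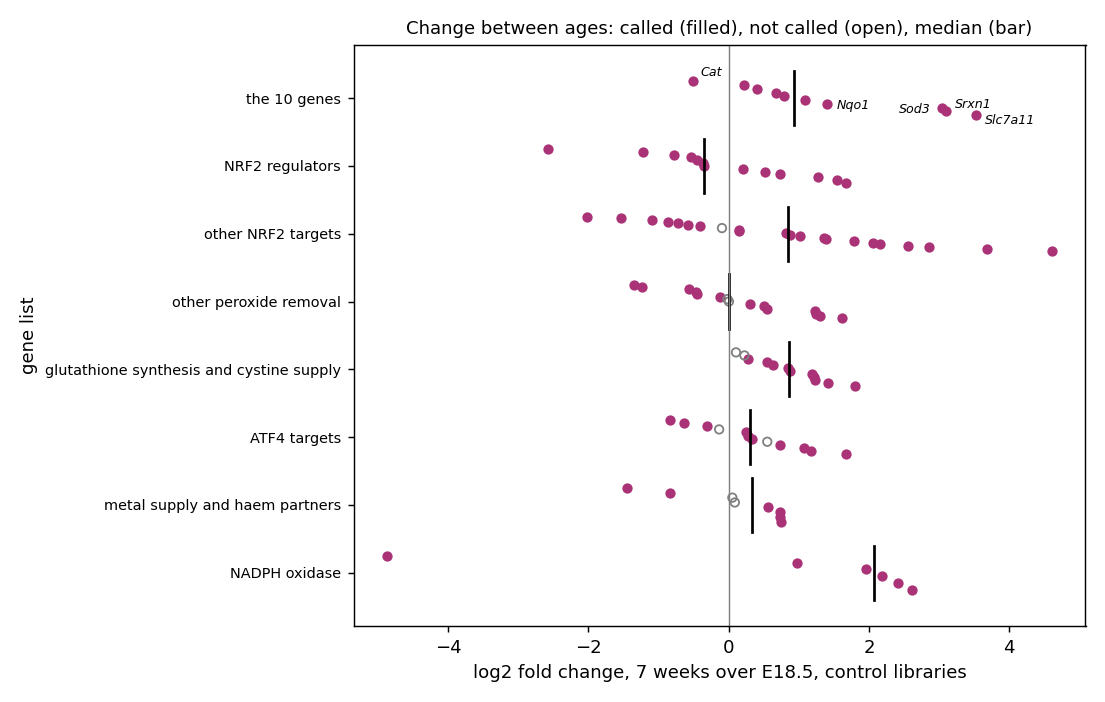
Log2 fold change of 7 weeks over E18.5 in control libraries (x axis) for the 10 genes and the 7 pathway lists (rows); filled points passed the test, open points did not, and the black bar is the median of each row. The median is 0.94 for the 10 genes, with Slc7a11, Srxn1 and Sod3 above 3 and Cat at -0.51, and the lists of NRF2 regulators and peroxide-removing genes lie on both sides of 0.

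Of 22 other NRF2 targets tested, 14 rose and 7 fell with age. The aldehyde oxidase gene Aox1 rose from 2 to 9 counts per control library to 94 to 140, and the glutathione transferase gene Gsta4 rose by 3.69 on the log2 scale. Txnrd1, the cytosolic thioredoxin reductase, fell from 176 ± 7.56 to 60.4 ± 1.60 CPM (log2 -1.54). Ftl1, ferritin light chain, had a log2 change of -2.02, which is uncertain because near-identical copies can share its reads. So this list did not move in 1 direction with the 6 targets among the 10 genes, all of which rose.

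The 15 other peroxide-removing genes were split, with 7 higher and 6 lower. The peroxiredoxin gene Prdx6 was at 1.61 and the lipid peroxide reductase gene Gpx4 at 1.30, while Prdx2 was at -1.35 and Gpx7 at -1.24. In the 12 genes of glutathione synthesis and cystine supply 10 rose and none fell, Chac1 (1.81) and the cystathionine lyase gene Cth (1.41) most. Among 12 ATF4 targets 7 rose, with Sesn2 at 1.67 and Ddit3 at 1.17, and 3 fell, with Ddit4 at -0.84 and Shmt2 at -0.64.

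Copper reaches the dismutases through transporters and chaperones, and of 8 genes of metal supply and haem turnover 4 rose and 2 fell with age. The copper importer Slc31a1 was at -0.84 and the copper pump Atp7a, which loads secreted copper enzymes such as SOD3, at -1.45. The zinc and manganese transporter Slc39a14 was at 0.75 and the constitutive haem oxygenase Hmox2 at 0.73. None of the 8 passed for TETA at either age. Of 6 genes of NADPH oxidase, an enzyme that makes superoxide, 5 rose with age, among them Cybb (2.61) and Ncf1 (2.42), both known from microglia in brain. Nox4 fell to 0 to 4 counts per control library at 7 weeks, from 40 to 75 at E18.5.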

How the data were processed

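RNA was measured in 21 mouse brain libraries, prepared with a stranded poly(A) TruSeq kit per the labels' protocols. The authors deposited whole-number counts per gene symbol, in a table for E18.5 and another for 7 weeks whose columns are the libraries, per the file headers. The submitters' processing notes name STAR 2.7.1a, featureCounts 2.0.1 and mm10, while the annotation and the strand setting are not given in the sources used here. At the depth of these libraries (14678265 to 24308555 counts), genes with few counts (Sod3, Nqo1 and Hmox1 at E18.5) are measured with less precision than the rest.

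In the E18.5 table all 1940 genes at 0 in control replicate 1-1 and above 0 elsewhere held multiples of 11 in every other library. They were divided by 11 before fitting. None of the 10 genes was among them, and after division 0 of them passed the filter at E18.5. The reason for the multiples was not tested.

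Sample titles gave the group and the replicate number. Genes were kept by filterByExpr (minimum count 10), scaled by TMM and compared by the quasi-likelihood test of edgeR, with p-values adjusted over all genes tested (Benjamini-Hochberg) and called under 0.05. Each age was fitted alone for TETA against control, the 11 control libraries for age, and all 21 libraries for the interaction. SEs were derived from the F statistic of the test, and intervals are 95%. The test was checked on simulated counts. R 4.3.3, edgeR 4.0.16, limma 3.58.1 and DESeq2 1.42.0 were used, with numpy 2.4.6, pandas 2.3.3 and matplotlib 3.10.9 in Python 3.11.15.

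Gene positions and exon lengths came from GENCODE M21 (GRCm38) and promoter sequences from RefSeq (GRCm38.p6). The 10 genes, 7 pathway lists (90 genes) and 11 marker lists were chosen with earlier results of these data known. All 10 genes are named in each comparison. From the lists, genes were named that passed in a TETA comparison, and between ages the 2 higher and 2 lower genes with the largest change in each list. Any other gene is said to be named after its value was seen. Likeness was Pearson's r over log2 CPM (prior count 2) with group means removed. Alternatives were other filters, no TMM factors, DESeq2, counts as deposited, each library left out, both libraries numbered 1-2 left out, E18.5 libraries summed by the first part of their number, a replicate block and a striatal covariate.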

Additional observations from a re-analysis of the deposited data

Results flagged for a closer look

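The TETA effect on Sod3 passed the test of a difference between the ages, narrowly: the log2 fold change was 0.48 at E18.5 and -0.17 at 7 weeks, and the interaction was -0.66 (adjusted p = 0.0487, edgeR's quasi-likelihood test). The call was lost in 21 of 29 alternative fits, over which the adjusted p ran from 0.0169 to 0.111.

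In each group the highest and the lowest library were compared with the rest of their group by the size of the gap relative to the range. Over 40 groups (10 genes in 4 groups) 3 libraries stood apart, where chance gives about 1 in 20 groups, or 2. Sod1 was low in TETA replicate 1-2 at E18.5, with a gap of 0.701 of the group's range. Slc7a11 was low in TETA replicate 2-2 at E18.5, with a gap of 0.721 of the range. Sod3 was low in control replicate 3 at 7 weeks, with a gap of 0.747 of the range.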

How the results depend on the processing

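Of the 10 genes, none passed for TETA at either age under any alternative run. At E18.5, 200 of 208 values kept their sign and 8 turned; at 7 weeks 125 of 150 did and 25 turned. Between ages 169 of 170 values kept direction and call, and the exception was Sod1 without TMM (0.07, adjusted p = 0.216). The 25 list genes named between ages kept theirs in all 421 alternatives. The labels give no batch.

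The number of genes called at E18.5, 0 in the main result, was 10 with DESeq2, 2 with the libraries that share the first part of their number summed (3 in each group), 7 with both libraries numbered 1-2 left out, and 0 to 7 when single libraries were left out (3 without control replicate 3-2, 7 without TETA replicate 1-2). At 7 weeks it was 1418, between 927 (without TETA replicate 3) and 1392 with single libraries left out, and 1 with the striatal covariate, whose values do not overlap between the groups. Without TMM, 67.6% of the calls at 7 weeks were higher, against 57.0% with it, and 72.0% against 54.0% for the interaction. The interaction count, 454, ran from 290 (without TETA replicate 3 at 7 weeks) to 622 with single libraries left out, and from 402 to 650 in the other alternatives. The cause of these shifts was not tested.

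Replicate numbers did not pair the libraries as a whole. Deviations of same-numbered libraries correlated by a mean of 0.018 over 6 pairs at E18.5, from -0.28 to 0.28. At 7 weeks the mean was -0.050 over 4 pairs, from -0.069 to -0.030. Closest to their own number were 2 pairs at E18.5 (1-1 and 1-2) and 0 at 7 weeks. The first part of the number was not examined in this way. With the replicate block 0 genes were called at E18.5 and 1063 at 7 weeks, where Gpx1 and Chac1 no longer passed (adjusted p = 0.122 and 0.0682, edgeR), and the log2 values of Gclc and Slc7a11 turned to 0.013 and -0.0074. With a replicate block within each age the interaction count was 472, and Sod3 no longer passed (-0.64, adjusted p = 0.0581, edgeR). That block and the summed sets were chosen after seeing the data. No paired analysis was possible for the age comparison because the ages share no replicate numbers.

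Other log2 values that turned sign are these. For TETA at E18.5, Slc7a11 was 0.046 with both libraries numbered 1-2 left out. For TETA at 7 weeks without TMM, Sod2 was 0.0075, Gclc 0.010 and Srxn1 0.0013. With the striatal covariate Sod1 was 0.035, Sod3 0.081, Gclm 0.048, Slc7a11 -0.065 and Hmox1 -0.94 (unadjusted p = 0.0422, adjusted p = 0.989, edgeR). In the interaction Gclc was 0.0087 and Gclm 0.012 without TMM, and Slc7a11 -0.054 with both libraries numbered 1-2 left out, an alternative chosen after seeing the data. With single libraries left out, the values at E18.5 ran from -0.020 to 0.056 for Sod1, -0.014 to 0.039 for Gclc and -0.082 to 0.078 for Slc7a11. At 7 weeks they ran from -0.038 to 0.011 for Sod2, -0.028 to 0.014 for Gclc, -0.089 to 0.13 for Hmox1, -0.042 to 0.0013 for Srxn1 and -0.031 to 0.035 for Slc7a11. In the interaction they ran from -0.015 to 0.072 for Srxn1 and -0.084 to 0.069 for Slc7a11. Sod3 and Nqo1 at E18.5 fall under a mean of 50 counts and have no value with that filter, and their few counts limit what can be said of them there.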

Other observations

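The 10 genes did not vary as 1 block between libraries of a group. With group means removed, Pearson's r over the 21 libraries ran from -0.56 (Sod1 and Gclm) to 0.60 (Gclc and Slc7a11) over the 45 pairs, with a median of 0.09, and 2 pairs were above 0.5. These values are a description over libraries that share their preparation and differ in depth. A second r left out the 2 libraries in which the first-named gene lay farthest from its group mean. It was -0.24 for Sod1 and Gclm and 0.35 for Gclc and Slc7a11. Both came from the embryonic libraries: Sod1 and Gclm were at -0.65 over the 12 E18.5 libraries and -0.02 over the 9 at 7 weeks, and Gclc and Slc7a11 at 0.74 and -0.05. Sod3 and Gclm, the other pair above 0.5, were at 0.55 and 0.64. With both libraries numbered 1-2 left out, the E18.5 values moved closer to 0. They were -0.27 for Sod1 and Gclm, 0.46 for Gclc and Slc7a11 and 0.35 for Sod3 and Gclm.

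Among 13434 genes tested at both ages, the closest to each gene are given with r over the 21 libraries. After it stands r without the 2 libraries in which the gene of the 10 lay farthest from its group mean. Closest to Sod1 were Chchd6 (0.92, 0.81), Rpl8 (0.92, 0.80) and Arpc1a (0.92, 0.79). Closest to Sod2 were Ipo7 (0.83, 0.73), Yme1l1 (0.82, 0.70) and Paqr9 (0.79, 0.65). Closest to Sod3 were Scd1 (0.81, 0.76), C1ql1 (0.79, 0.70) and Casp6 (0.78, 0.73). The single closest gene was Slc7a2 for Slc7a11 (0.87, 0.68), Picalm for Gclm (0.87, 0.88), Dbx2 for Srxn1 (0.85, 0.79), Gabarapl2 for Hmox1 (0.80, 0.71), Zscan26 for Gclc (0.78, 0.72) and Ybx1 for Cat (0.75, 0.70). For Nqo1 it was Isoc2b (0.72, 0.55), at 0.83 over the 12 E18.5 libraries and 0.30 over the 9 at 7 weeks. None of these closest genes was another of the 10. The 10 are so few of the 13434 genes compared that this says little about them.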
